A study of Mus musculus with 20 samples.

Results

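Homologous recombination and Fanconi genes were followed here in mouse colon organoids carrying, or not carrying, an active BrafV600E oncogene. The 9 genes were Brca1, Brca2, Bard1, Rad51ap1, Rad54l, Blm, Brip1, Fanca and Fancd2. They were found by the gene name that the scanner files give each probe, among probes that are not controls. All 9 were measured and passed the filter on dim probes, out of 21423 genes tested. No measured value entered the choice of these genes, although earlier results on the same arrays were known when they were chosen.

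Total RNA from proximal colon organoids was hybridised to 20 single-colour arrays. The organoids came from crypts of male mice of about 40 days that carried 1 Cre-activable BrafV600E allele, called Braf+/LSL in the labels. EV organoids carry that allele but received only the backbone of the lentivirus, BRAF organoids received lentiviral Cre and were taken 5 months after induction, and selected organoids were BrafV600E organoids that had been selected to grow in base medium. Each of these 3 types had 3 lines. Every line was sampled after 48 h in a medium labelled ENSW and after 48 h in base medium, which lacks the stem-cell niche factors. The described culture medium contained Wnt3a, R-spondin and Noggin conditioned media with EGF. Wild-type organoids gave 1 array in each medium and entered no test. Cre was delivered in culture, so all groups model epithelium without its stroma. The labels number the lines but do not say whether each came from its own mouse, so the p-values measure the spread between these lines.

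Homologous recombination repairs a broken chromosome by copying the intact sister, so it works mainly in S and G2 phase. BRCA1 with its partner BARD1 promotes the trimming of the broken ends and brings in PALB2 and BRCA2, and BRCA2 acts after them on the exposed single strand, while Rad51ap1 and Rad54l encode factors that help the broken strand to invade and pair with the sister. The Fanconi anaemia pathway clears crosslinks between DNA strands: a core complex that includes FANCA attaches ubiquitin to FANCD2, and the later steps use the helicase BRIP1 (FANCJ) and homologous recombination. The colon epithelium divides only near the crypt base, and colon crypt cultures depend on niche factors such as Wnt and R-spondin to go on dividing.

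Of each array's probes, 59.6 to 65.2% were well above background, and within the 6 groups the arrays correlated at r = 0.944 to 0.988. All 7 epithelial marker genes, Epcam and Cdx2 among them, were detected in every group. Of 8 blood and endothelial markers 6 were measured, and of 8 mesenchymal markers 4 (Col1a1, Col3a1, Pdgfra and Des did not pass the filter). Colonocyte markers moved with the medium in EV and BRAF organoids, but not in selected ones, and differed between types. The median difference of the colonocyte markers between selected and EV organoids was -6.58 in ENSW and -9.90 in base. In ENSW 6 of the 8 were called lower and 1 higher, and in base 7 lower. Of all genes 13.8% and 48.2% were called in either direction. The summed level of the colonocyte markers (log2, with each array's 75th percentile set to 0) was 6.03 to 8.49 in EV organoids in ENSW and 10.34 to 11.30 in base. It was 5.04 to 5.43 and 7.36 to 8.90 in BRAF organoids, and 4.29 to 4.63 and 4.39 to 4.77 in selected organoids. Goblet cell markers also differed between types: against EV organoids in base medium, all 5 were lower in BRAF and in selected organoids, with median differences of -6.11 and -10.48. Their summed level was 4.35 to 6.54 in EV organoids in ENSW and 8.17 to 9.09 in base, 1.36 to 5.48 and 2.93 to 5.28 in BRAF organoids, and -1.13 to -0.20 and -2.19 to -0.18 in selected organoids, where no array had Tff3 well above background. In base medium 6 of the epithelial markers were lower in selected organoids (median -1.50) and 3 in BRAF organoids, each against EV. Cdx1 was among the 3, at -6.74 ± 1.91 (SE, limma adjusted p = 0.0162). In ENSW 2 were lower in selected than in EV organoids, Cdx1 at -10.10 ± 1.91 (0.00447) and Cdx2 at -1.14 ± 0.25 (0.00933). In BRAF organoids in ENSW 1 was, Cdx2 at -1.01 ± 0.25 (0.029). No array of BRAF or selected organoids had the mesenchymal marker Pdgfrb well above background. The part of these cell-type differences in the results below was not tested. In bulk RNA, fewer cells that express a gene and less RNA of it per cell cannot be told apart.

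In EV organoids, 8 of the 9 genes fell after 48 h in base medium, all but Bard1 as read by its brightest probe. The test called 42.2% of all genes in this comparison, 23.4% as higher and 18.8% as lower. The media did not overlap for these 8, against 23.8% of all genes that were lower without overlap. The median difference of the 9 genes was -2.96 on the log2 scale, beside 0.19 over all genes tested, or -2.64 with Brca1 and Fancd2, which were not measured above background in base, at their bounds. In BRAF organoids the median difference was -1.14, or -1.11 with Brca1 at its bound, and 0 genes were called, against 1.67% of all genes. Of the 9 genes 6 had an unadjusted p under 0.05. The share of all genes with such a p was not counted, here or below. The media did not overlap for 5 of the 9, against 9.76% of all genes that were lower without overlap. With both arrays of a culture treated as a pair, a random block that the labels support, 6 of the 9 were called lower in BRAF organoids, against 19.1% of all genes (9.05% as lower). In selected organoids the median difference was 0.18, and 0 of the 9 genes were called in either fit (0 had an unadjusted p under 0.05), against 0.00467% of all genes, or 0.014% with paired cultures. A gene was called at an adjusted p under 0.05 in limma's moderated test over all genes.

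The sizes of these falls differed with the background correction. With the normexp correction, which also adds an offset of 50 to every signal, 7 of the 9 genes were called lower in EV organoids. Over all genes 7557 were called in either direction, beside 9036 with the background-subtracted signal. The differences with normexp were -3.42 for Rad51ap1, -2.10 for Brca2, -1.93 for Rad54l, -1.67 for Blm, -0.88 for Brip1, -0.61 for Fancd2 and -0.12 for Brca1, with Fanca between Brca2 and Rad54l. In the authors' values, which hold no background subtraction, 8 were called, against 8565 of all genes, and the same differences ran from -4.13 for Rad51ap1 to -0.74 for Brca1. The direction was the same in all 3 for each of these 8 genes. Folds below are those of the background-subtracted signal.

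**Figure D1:**
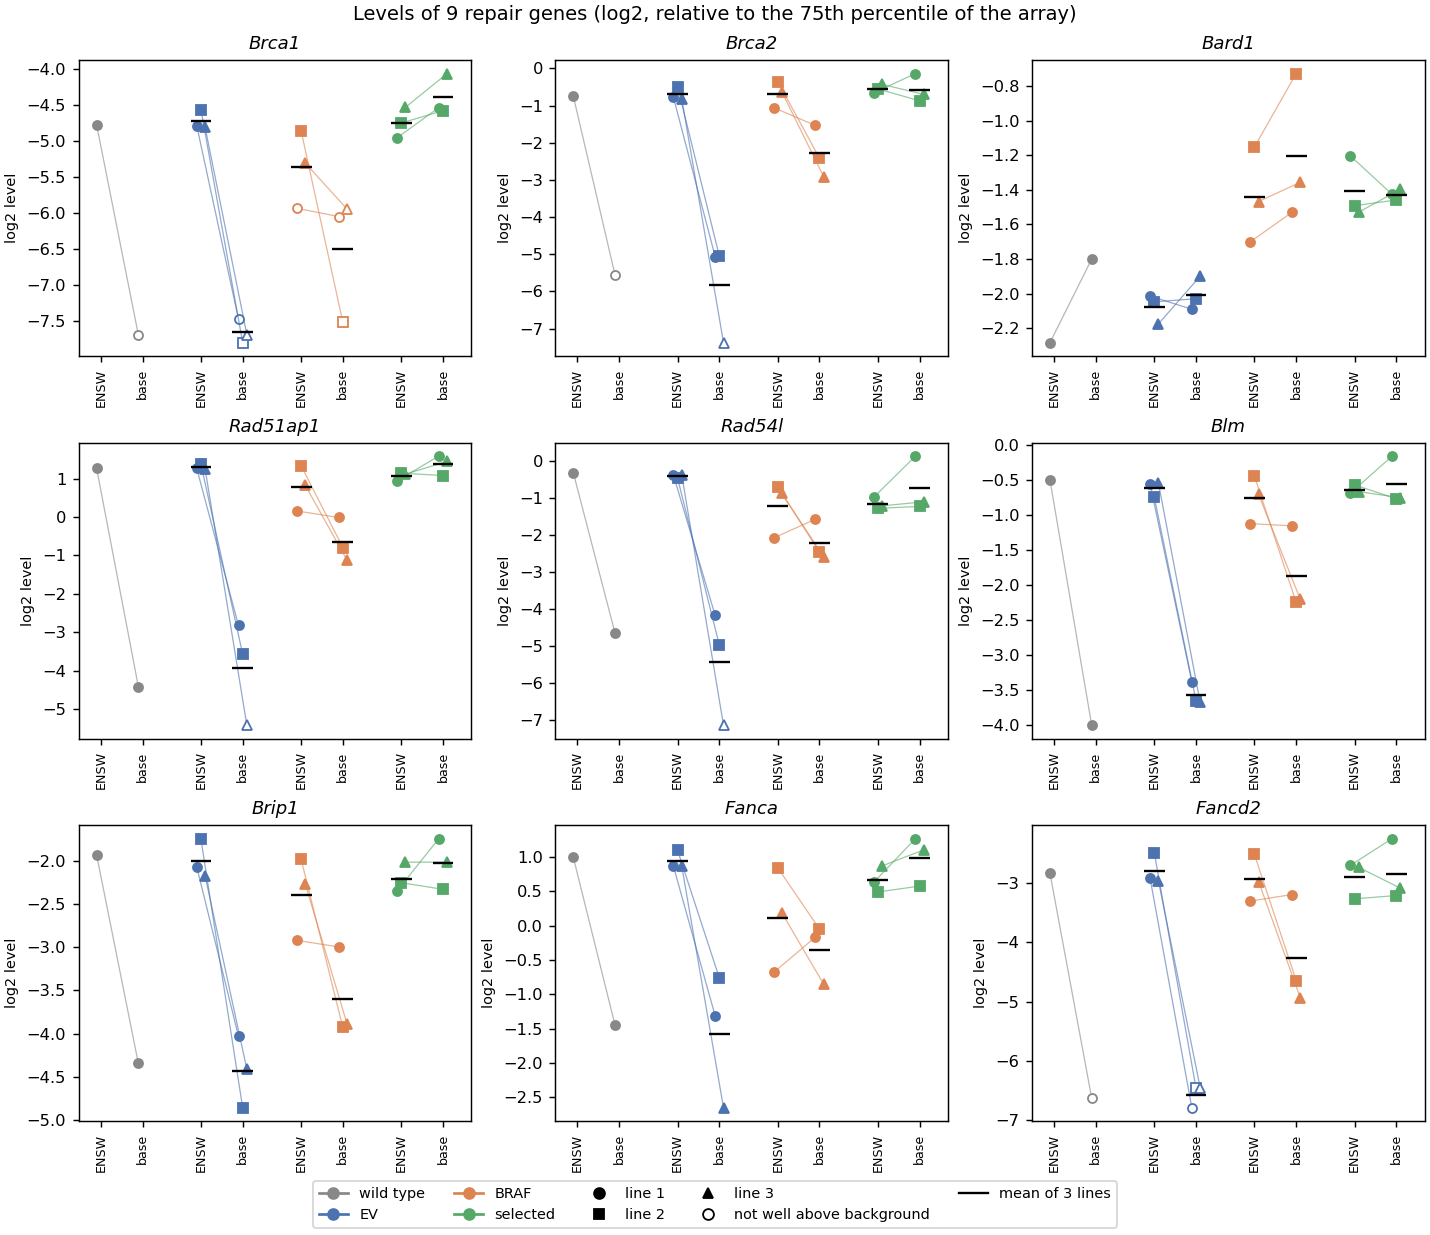
Level of each gene on all 20 arrays (log2 of the processed signal with each array's 75th percentile set to 0, 1 panel per gene with its own scale), with lines joining the 2 arrays of a culture, bars for the mean of 3 lines and open symbols for signals not well above background. In EV organoids 8 genes drop from ENSW to base in every line, in BRAF organoids lines 2 and 3 drop by less and line 1 hardly at all, and selected organoids stay near their ENSW level; the Bard1 panel shows its brightest probe.

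Brca1, the ubiquitin ligase that acts early in repair, was measured by a dim probe. Its level was -4.79, -4.56 and -4.81 in lines 1 to 3 of EV organoids in ENSW and -7.48, -7.80 and -7.69 in base. The groups were far apart, but no EV array in base medium was well above background. Measured against the lowest signal that was, Brca1 was at least 1.64-fold lower in base, with a fitted difference of -2.94 ± 0.35 (SE, limma adjusted p = 3.52e-05). In BRAF organoids Brca1 stood at -5.93, -4.86 and -5.30 in ENSW and at -6.05, -7.52 and -5.94 in base, where again no array was well above background, nor was line 1 in ENSW. The mean in ENSW was 1.11-fold above the bound for base. That mean includes the dim line 1, so no least fold is given. The fitted difference of -1.14 ± 0.35 was not called in limma (adjusted p = 0.113), but was with the paired cultures (0.0262). In selected organoids it stood at -4.95, -4.75 and -4.53 in ENSW and at -4.53, -4.58 and -4.06 in base, so all 6 arrays were well above background and the media overlapped. With the normexp correction it was called in 0 of the 12 comparisons, and the difference in EV organoids had a limma adjusted p of 0.651. The 60-base probe is shown because this one dim probe carries all Brca1 values; its 60 bases span 4037 bases of the minus strand at chr11:101359283-101363319 (mm9, per the scanner files), so it crosses at least 1 intron.
Brca1 probe A_52_P18267: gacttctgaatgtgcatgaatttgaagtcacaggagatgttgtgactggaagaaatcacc

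Bard1, the partner that BRCA1 needs for its ligase activity, was read by 3 probes, and they disagreed. By group means, A_55_P2186648 was the brightest in ENSW in every type and in selected organoids in base. It was dimmer than A_55_P2186644 only in EV and BRAF organoids in base. On average over the 18 arrays A_55_P2186644 was the brightest, and for that reason alone it stood for the gene in all counts. It read -2.01, -2.05 and -2.17 in lines 1 to 3 of EV organoids in ENSW and -2.09, -2.03 and -1.90 in base, with overlapping groups and a difference of 0.07 ± 0.19 (limma adjusted p = 0.796). The other probes fell in the same RNA. Probe A_52_P616404 averaged -2.13 ± 0.24 (SD, n = 3) in ENSW and -5.42 ± 0.69 in base, where 1 of the 3 arrays, line 1, was well above background, and probe A_55_P2186648 averaged -1.06 ± 0.16 and -3.70 ± 0.24. With every probe tested as its own row (26826 probes, 42.5% called), these falls were -3.29 ± 0.37 (SE, limma adjusted p = 2.1e-05) and -2.64 ± 0.24 (adjusted p = 7.21e-06). With the probes of a gene averaged, all 9 genes fell in EV organoids (9024 of all genes called in either direction) and the Bard1 difference was -1.95. The first 30 bases of each probe are shown, since which Bard1 sequence is read decides the result; all lie on the minus strand of chromosome 1 (mm9, per the scanner files), at chr1:71094217-71094276, chr1:71074902-71074961 and chr1:71074294-71074353 in that order, and which exon or intron holds each was not analysed here.
Bard1 probe A_52_P616404: aaatgctcagcaaacttgagacagttctta
Bard1 probe A_55_P2186644: cctcctctcggtttcccttctttcctacta
Bard1 probe A_55_P2186648: ccatttagggatactccagtctctgatcgc

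In BRAF organoids probe A_55_P2186648 of Bard1 fell by 1.08 ± 0.24 in base (limma adjusted p = 0.0375, 1.76% of probes called), and A_52_P616404 differed by -0.93 ± 0.37 (adjusted p = 0.191). The brightest probe differed by 0.24 ± 0.19 (adjusted p = 0.545). In selected organoids probes A_52_P616404, A_55_P2186648 and the brightest one differed by 0.11, 0.22 and -0.02 between media, with adjusted p-values of 1 in limma. The probes also disagreed in ENSW, where the brightest one was higher in selected than in EV organoids by 0.67 ± 0.19 (adjusted p = 0.0354, 13.1% of probes called). For the others the same difference was -0.10 ± 0.37 and -0.20 ± 0.24 (adjusted p = 0.88 and 0.616).

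**Figure D2:**
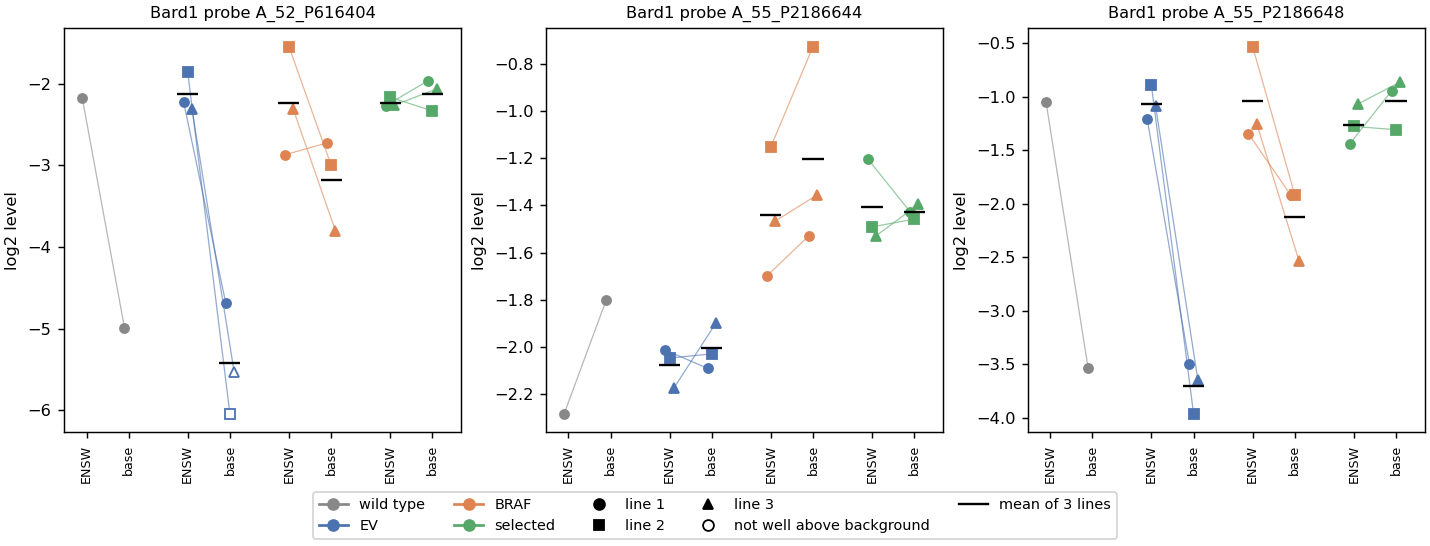
Level of the 3 Bard1 probes on all 20 arrays (log2 with each array's 75th percentile set to 0, own scale per panel; bars are means of 3 lines, lines join the 2 arrays of a culture, open symbols are not well above background). The outer panels drop in EV organoids in base medium, with differences of -3.29 and -2.64, while the middle panel, the brightest probe, differs by 0.07 and separates EV from BRAF and selected organoids instead.

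Brca2, which acts on the trimmed single-stranded DNA, was among the genes that fell most in EV organoids. It stood at -0.78, -0.49 and -0.83 in ENSW and at -5.06, -5.05 and -7.38 in base. The groups were wide apart, and line 3, whose signal was not well above background, was lowest. The fall was 5.13 ± 0.51 on the log2 scale, or 35.1-fold (limma adjusted p = 1.02e-05), and without line 3 in base the difference was -4.36. In BRAF organoids Brca2 went from -1.06, -0.35 and -0.64 to -1.53, -2.42 and -2.91, every base array being below every ENSW array. That difference was -1.61 ± 0.51, with an adjusted p of 0.115 in limma and 0.0174 with paired cultures. In selected organoids it read -0.66, -0.55 and -0.43 in ENSW and -0.14, -0.87 and -0.70 in base, a difference of -0.02 ± 0.51.

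Rad51ap1, whose product stimulates strand pairing, read 1.26, 1.37 and 1.25 in EV organoids in ENSW and -2.83, -3.57 and -5.42 in base. It fell by 5.24 ± 0.50, or 37.7-fold (limma adjusted p = 8.86e-06). Line 3 in base was again not well above background, and without it the difference was -4.50. In BRAF organoids it went from 0.16, 1.33 and 0.82 to -0.01, -0.80 and -1.13. The groups did not overlap, with a difference of -1.42 ± 0.50 (limma adjusted p = 0.152, or 0.0319 with paired cultures). Selected organoids read 0.94, 1.14 and 1.12 in ENSW and 1.59, 1.08 and 1.44 in base, overlapping groups with a difference of 0.30 ± 0.50.

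Rad54l encodes the RAD54 motor protein, which remodels DNA during strand invasion. It read -0.38, -0.46 and -0.37 in EV organoids in ENSW, the tightest group of the gene, and -4.17, -4.98 and -7.15 in base, the widest. The difference was -5.03 ± 0.61, or 32.7-fold (limma adjusted p = 3.6e-05), with line 3 in base not well above background. Without that array the difference was -4.17, and without line 1 in base it was -5.66. In BRAF organoids the levels were -2.08, -0.71 and -0.87 in ENSW and -1.57, -2.45 and -2.59 in base. Here line 1 was the lowest in ENSW and the highest in base, so the media overlapped and the difference of -0.98 ± 0.61 was called in neither fit (limma adjusted p = 0.409 and, with paired cultures, 0.187). In selected organoids Rad54l read -0.98, -1.27 and -1.21 in ENSW and 0.14, -1.22 and -1.10 in base, with line 1 in base standing above the rest.

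Blm, the RecQ helicase that dissolves joined recombination intermediates, was well above background on every array. In EV organoids it read -0.55, -0.74 and -0.54 in ENSW and -3.38, -3.65 and -3.68 in base. The 3 lines fell alike, and the difference of -2.96 ± 0.27, or 7.76-fold, had the smallest adjusted p of the 9 genes (limma, 6.95e-06). BRAF organoids read -1.12, -0.44 and -0.70 in ENSW and -1.15, -2.25 and -2.20 in base. The difference of -1.11 ± 0.27 just missed the threshold (limma adjusted p = 0.0525) and passed it with paired cultures (0.00794). Selected organoids read -0.68, -0.57 and -0.66 in ENSW and -0.15, -0.76 and -0.75 in base, a difference of 0.08 ± 0.27.

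Brip1, the FANCJ helicase that binds BRCA1, read -2.07, -1.75 and -2.18 in EV organoids in ENSW and -4.03, -4.86 and -4.41 in base. Its fall of 2.43 ± 0.30, or 5.41-fold had a limma adjusted p of 3.71e-05, and the groups did not overlap. In BRAF organoids it went from -2.92, -1.98 and -2.27 to -3.00, -3.93 and -3.89. The difference was -1.21 ± 0.30 (limma adjusted p = 0.0556, or 0.0103 with paired cultures), carried by lines 2 and 3. Selected organoids read -2.35, -2.25 and -2.02 in ENSW and -1.74, -2.33 and -2.02 in base.

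Fanca, a subunit of the Fanconi core complex, read 0.86, 1.10 and 0.86 in EV organoids in ENSW and -1.31, -0.76 and -2.65 in base. It fell by 2.52 ± 0.43, or 5.73-fold (limma adjusted p = 0.000393), with line 3 lowest. BRAF organoids read -0.68, 0.84 and 0.18 in ENSW and -0.17, -0.05 and -0.85 in base, so the media overlapped and the difference was -0.47 ± 0.43 (limma adjusted p = 0.605, or 0.338 with paired cultures). Selected organoids read 0.63, 0.49 and 0.87 in ENSW and 1.27, 0.58 and 1.10 in base. A second Fanca probe did not pass the filter on dim probes and was not used.

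Fancd2, the protein that the core complex marks with ubiquitin at a crosslink, read -2.92, -2.48 and -2.96 in EV organoids in ENSW. In base it read -6.79, -6.46 and -6.45, where no array was well above background. It was at least 6.25-fold lower in base, with a fitted difference of -3.78 ± 0.39 (limma adjusted p = 1.39e-05). In BRAF organoids the levels were -3.30, -2.51 and -2.97 in ENSW and -3.19, -4.64 and -4.94 in base. Line 1 in base lay among the ENSW arrays, and the difference was -1.33 ± 0.39 (limma adjusted p = 0.0942, or 0.0143 with paired cultures). Selected organoids read -2.70, -3.26 and -2.73 in ENSW and -2.25, -3.21 and -3.08 in base, with overlapping groups.

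The lines of 1 type did not respond alike. Base minus ENSW in the same culture had a median over the 9 genes of -2.82, -3.24 and -3.49 in EV lines 1 to 3. Over all genes the medians were 0.14, 0.14 and 0.30. In each EV line 8 of the 9 genes fell by more than 1 log2 unit. The share of all genes that did so was not counted, here or below. In BRAF organoids the median of the 9 was -0.03 in line 1, -1.95 in line 2 and -1.62 in line 3. Over all genes it was -0.0004, 0.11 and 0.07 in these lines. In BRAF line 1, 0 of the 9 genes fell by more than 1 unit, against 7 in each of lines 2 and 3. For Brca2, base medium left 5.1, 4.2 and 1.1% of the ENSW signal in EV lines 1 to 3 and 71.8, 23.9 and 20.6% in BRAF lines. Mki67, a marker of dividing cells, went with it: 9.3, 3.3 and 1.0% of its ENSW signal was left in EV lines and 136, 36.2 and 33.3% in BRAF lines. The part of cell division in the falls was not tested. The median response of selected lines was 0.53, 0.03 and 0.11. With the BRAF line 1 array in base left out, 5 of the 9 genes were called lower in BRAF organoids, while the count over all genes went from 358 to 1720. With the EV line 3 array in base left out 3 were (635 of all genes), and with the BRAF line 1 array in ENSW or the selected line 1 array in base left out 1 was (185 and 316).

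**Figure D3:**
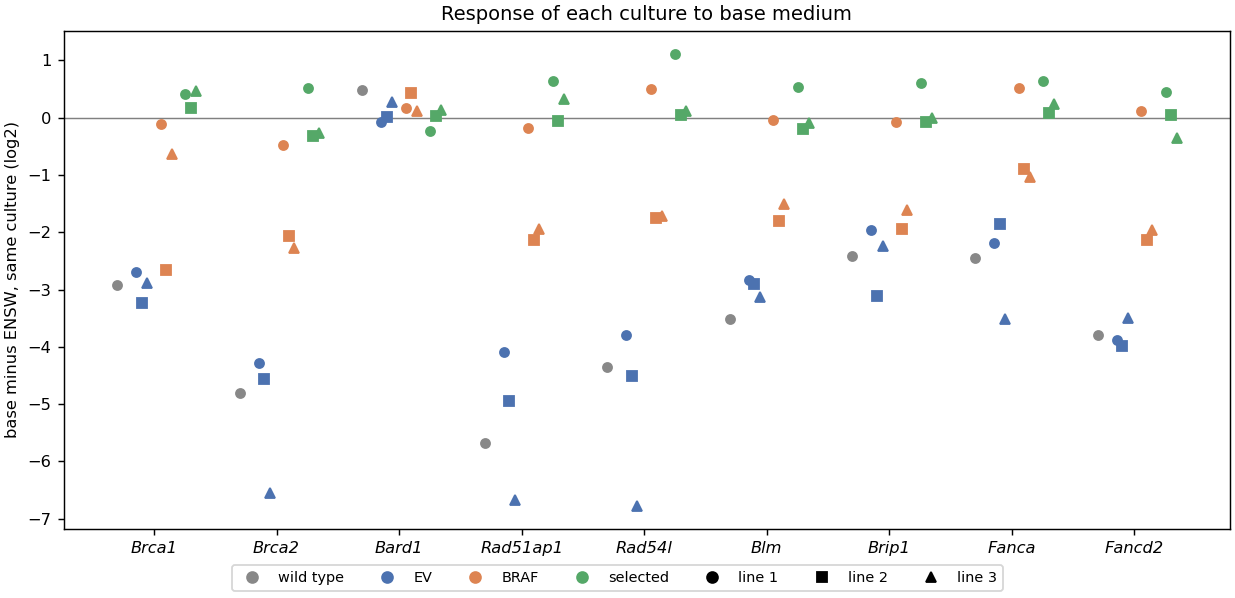
Base minus ENSW in the same culture (log2) for each gene, with 1 symbol per line and colours for organoid types. EV lines lie at -1.86 or lower for every gene but Bard1, BRAF line 1 lies between -0.48 and 0.51, the other BRAF lines lie between it and the EV lines for most genes, and selected lines lie between -0.35 and 1.12.

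The difference in response between types was tested directly as an interaction. The response of BRAF organoids was weaker than that of EV organoids for 5 of the 9 genes, against 3.53% of all genes called and 2.98% in that direction. Rad54l differed by 4.05 ± 0.86 (limma adjusted p = 0.0299), Rad51ap1 by 3.82 ± 0.71 (0.0203), Brca2 by 3.53 ± 0.72 (0.0253), Fancd2 by 2.45 ± 0.55 (0.0348) and Blm by 1.84 ± 0.38 (0.0262). With paired cultures 8 of the 9 were called, all but Bard1, against 19.8% of all genes. The count changed when single arrays were left out, and so did the count over all genes, which was 756 with all arrays. It was 0 of the 9 without EV line 2 or 3 in ENSW (51 and 64 of all genes called), without BRAF line 1 or 3 in ENSW (69 and 82) and without BRAF line 1 in base (59). It was 1 without EV line 1 in ENSW (177 of all genes) and 3 without EV line 3 in base (276). Without EV line 3 in base Rad54l, Rad51ap1 and Brca2 differed by 3.19, 3.08 and 2.75, and without EV line 1 in base Rad54l differed by 4.68. The response of selected organoids was weaker than that of EV organoids for 8 of the 9, again all but Bard1, against 24.2% of all genes called (13.8% in that direction). These differences ran from 2.61 ± 0.42 for Brip1 (limma adjusted p = 0.000936) to 5.54 ± 0.71 for Rad51ap1 (0.000333), and 8 were called whichever array was left out. Without EV line 3 in base Rad51ap1 differed by 4.80 and Brca2 by 4.33, with Rad54l between them, and without EV line 1 in base Rad54l differed by 6.09. Between selected and BRAF organoids the median difference in response was 1.39, and 0 of the 9 genes and 0% of all genes were called in limma. An unadjusted p under 0.05 was found for 6 of the 9, with no share over all genes counted. Both comparisons against EV share the EV arrays.

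In base medium all 9 genes were higher in BRAF than in EV organoids, against 31.1% of all genes called and 17.9% as higher. The median difference was 1.70, beside 0.03 over all genes, or 1.46 over 8 genes with Fancd2 at its bound and Brca1 left out. Brca2 was higher by 3.54 ± 0.51 (11.7-fold, limma adjusted p = 0.000249), Rad51ap1 by 3.30 ± 0.50 (9.82-fold, 0.000365) and Rad54l by 3.23 ± 0.61 (9.39-fold, 0.00145). Without the EV line 3 array in base, which was not well above background for these 3 genes, they were higher by 2.77, 2.55 and 2.37. Of the 9 genes 6 were then called, while the count over all genes went from 6652 to 4368. Without the EV line 1 array in base Rad54l was higher by 3.86. Fancd2 was at least 2.26-fold higher in BRAF organoids (limma adjusted p = 0.000693) and Blm 3.25-fold (0.000448). Brca1 was not well above background on any of the 6 arrays, so no fold is given although the test called it (limma adjusted p = 0.0244). With the normexp background correction Brca1, Brip1 and Fancd2 were not called here, which left 6 of the 9 (5249 of all genes). Brip1 at 0.83 ± 0.30 (0.0473) and Fanca at 1.22 ± 0.43 (0.0464) lay just inside the threshold, and with paired cultures these and Brca1 were not called (limma adjusted p = 0.134, 0.0702 and 0.074), which left 6 of the 9 against 30.4% of all genes. The groups did not overlap for 7 of the 9 genes, against 22.4% of all genes that were higher without overlap. EV and BRAF arrays, like EV and selected arrays, lay on different slides, so slide and type cannot be told apart.

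Selected organoids in base medium stood above EV organoids for all 9 genes, and the groups overlapped for 0 of them, against 48.2% of all genes called, 25% called higher and 28.7% higher without overlap. The median difference was 3.27, beside 0.02 over all genes, or 2.59 with Brca1 and Fancd2 at their bounds. Rad51ap1 was 39.7-fold higher (limma adjusted p = 2.58e-06), Brca2 38.3-fold (3.04e-06) and Rad54l 26.1-fold (2.62e-05). EV line 3 in base was not well above background for these 3 genes, and without that array they were higher by 4.57, 4.49 and 3.85 on the log2 scale. Without EV line 1 in base Rad54l was higher by 5.34. Brca1 was at least 2.06-fold and Fancd2 at least 6.0-fold higher, as no EV array in base was well above background for them. With the normexp correction Brca1 was not called here (limma adjusted p = 0.399), while Fancd2 was (0.021). Bard1 by its brightest probe was 1.49-fold higher (limma adjusted p = 0.0223), and by its other probes 3.30 ± 0.37 and 2.66 ± 0.24 log2 units higher (adjusted p = 7.89e-06 and 1.69e-06, 48.8% of probes called). The difference of 3.30 is from A_52_P616404, for which EV lines 2 and 3 in base were not well above background.

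Selected organoids also stood above BRAF organoids in base for 6 of the 9 genes, against 9.77% of all genes called and 4.63% as higher. Brca1 was at least 2.18-fold higher (limma adjusted p = 0.00277), Brip1 1.57 ± 0.30 log2 units higher (0.00549), Blm 1.31 ± 0.27 (0.00828), Rad51ap1 2.01 ± 0.50 (0.0224), Fancd2 1.41 ± 0.39 (0.0356) and Brca2 1.72 ± 0.51 (0.0466). With the normexp correction Brca1 and Fancd2 were not called here (limma adjusted p = 0.791 and 0.418). Brca2 and Fancd2 lost their calls under 17 and 10 of 28 alternatives. The groups did not overlap for 7 genes, against 11.3% of all genes that were higher without overlap. Those of Fancd2 overlapped. Rad54l at 1.48 ± 0.61 (limma adjusted p = 0.144) and Fanca at 1.34 ± 0.43 (0.0663) were not called. With paired cultures 3 genes were called (Brca1, Brip1 and Blm), against 8.61% of all genes, and 3 were called when any of the base arrays of selected lines 1 and 3 or BRAF lines 2 and 3 was left out. Over all genes 1251, 1251, 842 and 1055 were then called in that order, beside 2093 with all arrays. Only selected line 3 and BRAF line 1 shared a slide, and there the 9 genes were 0.11 to 1.99 log2 units higher in the selected line in base and 0.17 to 1.55 higher in ENSW. In that pair the difference was as large in ENSW as in base for several genes, for example 0.87 and 0.47 for Rad54l.

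In ENSW few of the 9 genes were called between types. Between BRAF and EV organoids 0 of the 9 genes were called, against 6.22% of all genes, with a median difference of -0.39, and 1 had an unadjusted p under 0.05. That was Bard1 by its brightest probe, higher by 0.64 ± 0.19 (limma adjusted p = 0.0634); it was called when the base array of BRAF line 1 or 2 was left out (adjusted p = 0.0443 and 0.0217). Brca1, Rad54l and Fanca were lower in BRAF organoids without overlap, against 13.6% of all genes, but not called, and BRAF line 1 was the lowest array for each. Between selected and EV organoids Bard1 was the 1 gene called, higher by 0.67 ± 0.19 (limma adjusted p = 0.0341), against 13.8% of all genes and 8.68% as higher. That call was lost when any 1 of the 6 arrays compared was left out, and only its brightest probe showed it. The median over the 9 genes was -0.11. Rad54l (-0.75) and Rad51ap1 (-0.23) were lower in selected organoids without overlap, against 15.8% of all genes, but not called. Between selected and BRAF organoids the median was 0.13 and 0 genes were called (0.607% of all genes).

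Ranked by group mean, selected organoids in base or EV organoids in ENSW had the highest level of 7 genes, and neighbouring groups in the upper part of the order overlapped for most of them. Brca2 was highest in selected organoids in ENSW (-0.55 ± 0.11, SD, n = 3), and Bard1 by its brightest probe in BRAF organoids in base (-1.20 ± 0.42). For Brca2, Rad51ap1, Blm and Brip1, BRAF organoids in base overlapped neither the group next above them nor EV organoids in base. The share of all genes with such a step was not counted. For Brip1 the call against EV organoids was lost under 20 of 28 alternatives. EV organoids in base were lowest for all genes but Bard1.

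The other repair genes followed to different degrees. Of 31 further homologous recombination genes, 25 were called lower and 1 higher in EV organoids in base, with a median difference of -1.39. Of all genes 18.8% were called lower and 23.4% higher there. The difference was -2.18 ± 0.20 for Mre11a, which starts end trimming (limma adjusted p = 6.95e-06), -4.35 ± 0.43 for Psmc3ip, a strand exchange cofactor, -4.41 ± 0.46 for Rad54b and -3.08 ± 0.32 for Rmi2, a partner of BLM. No EV array in base was well above background for Rad54b and Rmi2, so the sizes of their falls are not well measured. The 1 that rose, named after its value was seen, was Zswim7 at 0.84 ± 0.28 (limma adjusted p = 0.0264). In BRAF organoids 1 of the 31 was called lower, Xrcc2 at -1.28 ± 0.26 (limma adjusted p = 0.0303), or 13 with paired cultures. Of all genes 1.67% were called in either direction, and 9.05% as lower with paired cultures. In base, 17 were higher and 1 lower in BRAF than in EV organoids, 25 higher and 1 lower in selected than in EV, and 12 higher in selected than in BRAF. Of all genes 17.9%, 25% and 4.63% were called higher in these comparisons, in that order.

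Of 17 other Fanconi genes 11 fell in EV organoids in base, with a median of -1.04, against 18.8% of all genes called lower. Among the 11 were Fancb (-4.80 ± 0.40), a core complex subunit, the ubiquitin-conjugating enzyme Ube2t (-3.63 ± 0.31), Fanci (-5.66 ± 0.60), the partner of FANCD2, and Faap24 (-2.03 ± 0.23). For Fancb and Ube2t no EV array in base was well above background, so the sizes of those falls are not well measured. In BRAF organoids 0 of the 17 were called, against 1.67% of all genes. With paired cultures 6 were called lower, against 9.05% of all genes. In base, 6 were higher in BRAF than in EV organoids, 12 in selected than in EV, and 4 in selected than in BRAF. The shares of all genes called higher were 17.9%, 25% and 4.63%. In ENSW the ubiquitin ligase Rfwd3 was lower in BRAF than in EV organoids (-0.50 ± 0.13, limma adjusted p = 0.0318), a call not made with paired cultures, and Wdr48, a cofactor of USP1, was higher in selected organoids (0.74 ± 0.19, 0.0191).

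Of 13 genes of damage signalling and single-strand DNA binding, 11 fell in EV organoids (median -1.97). The share of all genes called lower there, 18.8%, applies to each list of this paragraph. The histone H2ax differed by -2.67 ± 0.23, Rpa2, which coats single strands, by -3.18 ± 0.30, Topbp1 by -2.43 ± 0.24 and the kinase Atr by -1.95 ± 0.24. The 2 of the 13 that were not called, named after their values were seen, were Chek1, a kinase downstream of ATR, at -0.08 ± 0.22 and the ubiquitin ligase Rnf8 at -0.16 ± 0.12. End joining, the repair route that needs no sister, had 6 of 11 genes lower (median -0.71). The Ku subunits Xrcc6 and Xrcc5 differed by -2.64 ± 0.29 and -2.06 ± 0.38, while Lig4, Xrcc4, Nhej1, Dclre1c and Polm, named after their values were seen, differed by 0.18 to 0.61 and were not called, or 2 of them as higher with paired cultures (Xrcc4 and Dclre1c). Nhej1 was lower in selected than in EV organoids, at -1.32 ± 0.25 in ENSW (limma adjusted p = 0.00514). Of 5 related helicases 4 fell, among them Recql4 (-2.58 ± 0.31) and Rtel1 (-2.18 ± 0.27), and the fifth, Wrn, named after its value was seen, differed by 0.49 ± 0.20 (limma adjusted p = 0.0566, or 0.00687 with paired cultures).

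Cell cycle genes moved with the repair genes. Of 22 measured, 20 fell in EV organoids in base, with a median of -4.64, against 18.8% of all genes called lower. Examples were the replication licensing factor Cdt1 (-4.07 ± 0.36), the helicase subunit Mcm4 (-3.69 ± 0.33) and the transcription factor E2f1 (-3.24 ± 0.31). In BRAF organoids the median of the list was -1.11 and 1 was called, Cdt1 at -1.54 ± 0.36 (limma adjusted p = 0.0489), or 8 with paired cultures. Of all genes 1.67% were called, and 9.05% as lower with paired cultures. In base medium 18 were higher in BRAF than in EV organoids, 20 in selected than in EV, and 10 in selected than in BRAF (5 with paired cultures). The shares of all genes called higher were 17.9%, 25% and 4.63%. With paired cultures 8.61% were called in either direction between selected and BRAF organoids. The part of the cell cycle genes in the repair gene results was not tested.

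**Figure D4:**
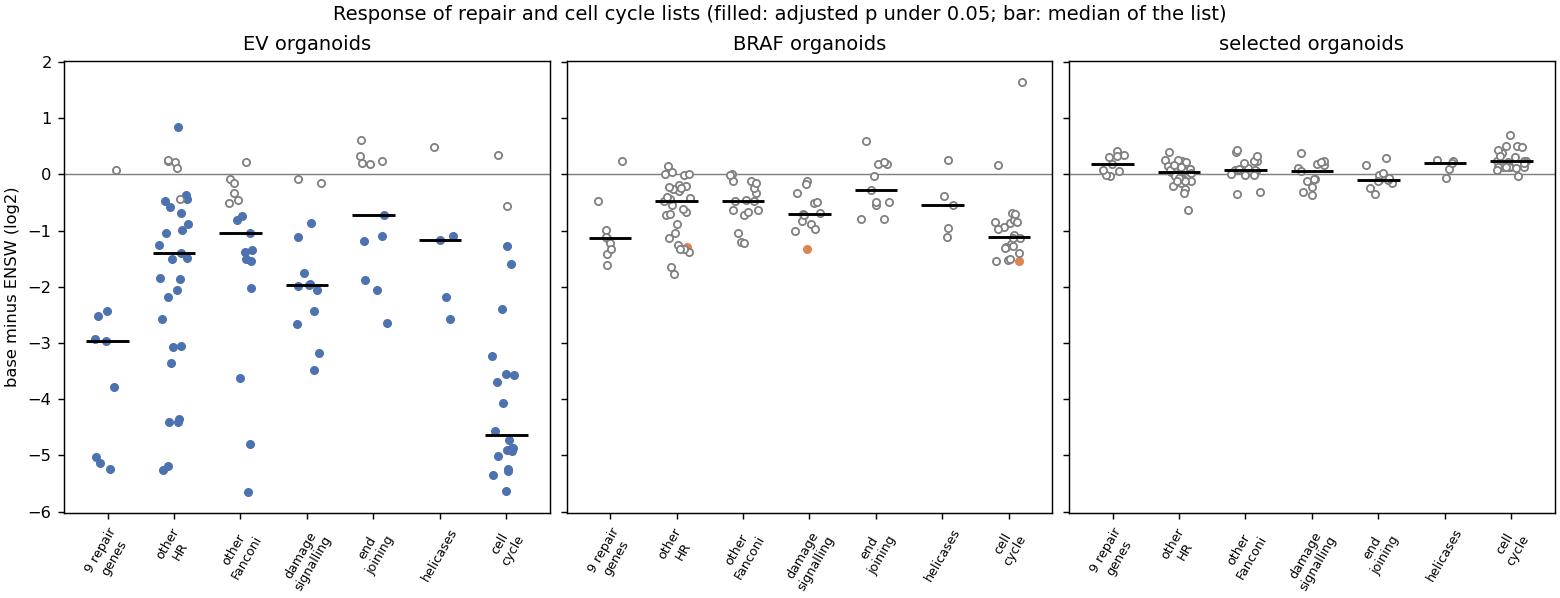
Base minus ENSW (log2) for every gene of the 9 repair genes, the other repair lists and the cell cycle list in EV, BRAF and selected organoids, with filled symbols for an adjusted p under 0.05 and bars for list medians. In EV organoids the medians run from -0.71 for end joining to -4.64 for the cell cycle, in BRAF organoids few genes pass the test, and in selected organoids no gene of these lists does.

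The genes whose levels ran most nearly parallel to each of the 9 over the 18 arrays are named here as a description. These Pearson correlations come from arrays that share the medium and the type, and carry no test. For Brca2 the nearest were Kntc1 (r = 0.996), Cenph (0.995) and Pola1 (0.994), and for Rad51ap1 the nuclease Exo1 (0.997), the DNA polymerase subunit Pola1 (0.997) and Uhrf1 (0.996). Rad54l ran with Melk (0.994), Mcm5 (0.989) and Top2a (0.988), Blm with Cdt1 (0.993), Nup205 (0.990) and Hrob (0.988), and Fancd2 with Nup205 (0.989), Hrob (0.988) and Rpp40 (0.988). Brip1 ran with the helicase Recql4 (0.979), Dek (0.976) and Skp2 (0.976), Fanca with Chaf1b (0.970), Nbn (0.962) and Erh (0.960), and Brca1 with Haus3 (0.970), Zfp367 (0.966) and Cdca4 (0.966). With the 3 EV arrays in base left out, these values were 0.900 to 0.988. The brightest Bard1 probe stood apart: its nearest were Sall4 (0.973), Fxyd1 (0.962) and Cd4 (0.961), and its highest r with any of the other 8 genes was 0.324, with Brca2, or -0.357 without the EV arrays in base.

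The stretch of 250 bases before the transcription start was available from RefSeq (GRCm38.p6) for 8 of the 9 genes, in 9 windows. Both strands were searched for E2F motifs (TTTGGCGC, TTTCCCGC, TTTCGCGC or TTTGCCGC), for the cell cycle homology region CHR (TTTGAA or TTCGAA) and for the CCAAT box (CCAAT), none of which overlaps another in the matches found. An E2F motif was found in 2 of the 8 genes, Brca2 and Bard1, beside 2.16% of all genes with a window. A CHR motif was found in Bard1 alone, beside 19.6% of genes, and a CCAAT box in 6, beside 37.5% of genes. Of all windows, 1.86% held an E2F motif, 17.1% a CHR and 33.8% a CCAAT box. The promoters of Brca2, Bard1 and Brip1 are shown because they hold the E2F matches and, in Brip1, 3 CCAAT boxes on the opposite strand; matches are in capitals, read 5' to 3' on the gene's strand. Brca2 lies at chr5:150522371-150522620 (plus strand), Bard1 at chr1:71102973-71103222 (minus) and Brip1 at chr11:86201194-86201443 (minus).
Brca2 promoter: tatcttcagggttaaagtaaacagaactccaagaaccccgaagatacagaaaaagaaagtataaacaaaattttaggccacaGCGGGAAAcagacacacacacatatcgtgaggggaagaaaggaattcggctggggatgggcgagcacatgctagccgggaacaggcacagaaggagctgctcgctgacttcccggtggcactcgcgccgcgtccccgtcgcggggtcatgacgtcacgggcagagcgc
Bard1 promoter: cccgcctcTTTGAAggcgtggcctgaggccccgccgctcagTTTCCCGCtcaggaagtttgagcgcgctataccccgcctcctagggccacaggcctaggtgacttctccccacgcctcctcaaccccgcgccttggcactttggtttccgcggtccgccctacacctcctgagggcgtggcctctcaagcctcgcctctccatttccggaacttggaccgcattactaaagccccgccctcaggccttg
Brip1 promoter: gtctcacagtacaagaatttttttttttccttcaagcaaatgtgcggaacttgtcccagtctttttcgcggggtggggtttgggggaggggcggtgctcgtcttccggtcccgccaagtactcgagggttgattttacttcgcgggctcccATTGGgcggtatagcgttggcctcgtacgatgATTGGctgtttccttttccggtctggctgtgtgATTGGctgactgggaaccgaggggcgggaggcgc
The E2F match began 168 bases before the start in Brca2, on the opposite strand, and 209 bases before it in Bard1, and the CCAAT boxes of Brip1 began 99, 67 and 34 bases before it. A match describes these letters only.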

How the data were processed

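The 20 arrays were deposited as scanner output, with fluorescence intensity per spot from Feature Extraction 10.7.3.1, per the file headers. The processed intensity is background-subtracted, per the file headers. A further deposited table gives log2 values per array. Each of its columns ranked probes as the median intensity without background subtraction did (Spearman rho 1), and its centring and scale beyond that are unknown. Column medians lay between 5.66 and 5.68. The submitters' processing notes name limma.

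The processed intensity was put on the log2 scale and the 75th percentile of each array subtracted. Outlier spots and the 1377 control spots of each array were dropped, and 0 were saturated. A probe had to be well above background on 3 or more of the 18 tested arrays (26826 probes were), and each gene was read by its brightest probe on average over these arrays. Probes were renamed through RefSeq accession (26581 probes) or symbol where possible. Group means were fitted with limma 3.58.1 (lmFit, eBayes, R 4.3.3; 12 residual degrees of freedom), with 12 contrasts and Benjamini-Hochberg adjustment over 21423 genes at 0.05. All 6 groups of 3 arrays share 1 estimate of the spread, and the number of arrays limits the precision. The fit was tested on simulated data. "At least" folds set the brighter group against the higher of the dim probe's own signal and the lowest signal among probes well above background. Wild-type arrays were described only.

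Both arrays of a culture have the same type and line in the labels. Their deviations from the group means correlated at r = 0.423 to 0.874 (9 pairs), so culture as a random block (estimated correlation 0.525) is given where it changed a call of the 9 genes. All arrays were scanned in 1 batch, on 6 slides.

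The 9 genes, the other lists and the motifs were chosen with earlier results of these data known. All 9 genes are named, with the 3 genes most like each and up to 4 called genes per list and contrast by adjusted p, except where the text says that a gene was named after its value was seen. Alternatives were the normexp correction (offset 50), quantile normalization, the authors' values, no filter, the mean of a gene's probes, line, culture or slide as a block, and each array left out. Each probe as its own row and both arrays of EV line 3 or BRAF line 1 left out were added after seeing the data. Probe positions are those of the scanner files (mm9), with no gene annotation of that build used here. Tables and plots were made in Python 3.11.15 (pandas 2.3.3, numpy 2.4.6, matplotlib 3.10.9).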

Additional observations from a re-analysis of the deposited data

Results flagged for a closer look

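The response to base medium, base minus ENSW, differed between organoid types for these genes in limma's interaction test over all genes. All differences are positive, so the fall was smaller, or absent, in the type named first.

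For selected against EV organoids, the difference was 5.54 ± 0.71 (SE, limma adjusted p = 0.000333) for Rad51ap1, 5.46 ± 0.86 (0.000878) for Rad54l and 5.11 ± 0.72 (0.0005) for Brca2. It was 3.83 ± 0.55 (0.000559) for Fancd2, 3.29 ± 0.50 (0.000735) for Brca1 and 3.04 ± 0.38 (0.000322) for Blm. It was 2.84 ± 0.61 (0.00446) for Fanca and 2.61 ± 0.42 (0.000936) for Brip1. Each selected line responded less than each EV line for these 8 genes. The test on these same values picked the genes, so this adds no support. Its share over all genes was not counted. No EV array in base was well above background for Brca1 and Fancd2, and with the normexp correction their differences were 0.11 (limma adjusted p = 0.79) and 0.59 (0.196), so neither was called.

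For BRAF against EV organoids, the difference was 4.05 ± 0.86 (limma adjusted p = 0.0299) for Rad54l, 3.82 ± 0.71 (0.0203) for Rad51ap1 and 3.53 ± 0.72 (0.0253) for Brca2. It was 2.45 ± 0.55 (0.0348) for Fancd2 and 1.84 ± 0.38 (0.0262) for Blm. Each BRAF line responded less than each EV line for these 5 genes, which were likewise picked by the test on these values. This too adds no support, and its share over all genes was not counted. With the normexp correction the Fancd2 difference was 0.15 (limma adjusted p = 0.762). Without both arrays of BRAF line 1, 0 of these 5 were called, and the count over all genes went from 756 to 22.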

How the results depend on the processing

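Of the calls, 7 of 8 in EV organoids between media, 7 of 9 for selected against EV organoids in base, 6 of 8 for the response of selected against EV, 5 of 9 for BRAF against EV in base and 2 of 6 for selected against BRAF in base were made under every alternative run, and 0 of 5 for the response of BRAF against EV.

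In BRAF organoids between media, where 0 of the 9 genes were called, normexp gave 2, the authors' values 4, the line number as a replicate block 1, culture as a block 6, and slide as a block 2 (random) or 1 (fixed). Over all genes 358 were called, and 381, 566, 616, 4083, 725 and 732 under these settings in that order. Leaving out both arrays of EV line 3 gave 1 (398 of all genes) and of BRAF line 1 gave 4 (862), and leaving out single arrays 0 to 5. For BRAF against EV in ENSW (0), leaving out BRAF line 1 gave 1 (1103 of all genes, beside 1333 with all arrays) and single arrays 0 to 1. For selected against EV in ENSW (1, Bard1), normexp, quantile normalization, the authors' values, the mean of probes and leaving out EV line 3 each gave 0, and single arrays 0 to 1. Over all genes 2962 were called there, and 1919, 2504, 2665, 2924 and 1264 under the named settings in that order. For selected against BRAF in base (6), culture as a block gave 3 (1844 of all genes, beside 2093 in the unpaired fit) and single arrays 3 to 8. For the response of BRAF against EV (5), normexp gave 3, culture as a block 8, EV line 3 left out 2, BRAF line 1 left out 0, and single arrays 0 to 6. Over all genes 756 were called there, and 1326, 4238, 69 and 22 under the named settings in that order. For BRAF against EV in base (9) normexp and culture as a block each gave 6 (5249 and 6513 of all genes, beside 6652), and single arrays 6 to 9. The mean of a gene's probes turned the Bard1 difference in EV organoids to -1.95 and its difference in response, selected against EV, to 2.06.

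Same-numbered lines of different types correlated at r = -0.081 to 0.374 (36 pairs, median 0.088). Differently numbered lines of different types correlated at -0.256 to 0.167 (72 pairs, median -0.042). Whether the number pairs samples across types is not settled by this, and the main fit did not pair them. As a replicate block the number gave 1 called gene in BRAF organoids between media, as above. It gave 1 fewer, Brip1, for BRAF against EV in base (7497 of all genes, beside 6652). Brip1 and Fanca for BRAF against EV in base lost their calls under 20 and 19 of 28 alternatives. Of the median over all genes, normexp moved BRAF against EV in ENSW from 0.06 to 0.22, and the authors' values moved EV base minus ENSW from 0.19 to 0.05. Signal over background limits Brca1 and Fancd2 most.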

Other observations

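The wild-type arrays, 1 per medium and without replicates, read much as the EV lines did. Brca2 was -0.74 in ENSW and -5.55 in base, Rad51ap1 1.27 and -4.42, Rad54l -0.31 and -4.65, and Fanca 1.00 and -1.45. Blm was -0.49 and -4.00, Brip1 -1.93 and -4.35, Brca1 -4.77 and -7.69, and Fancd2 -2.83 and -6.63, where Brca1, Brca2 and Fancd2 in base were not well above background. The brightest Bard1 probe was -2.28 and -1.80. The median of base minus ENSW over the 9 genes was -3.51, beside -2.82 to -3.49 in EV lines. Over all genes the wild-type median was 0.31. Of the 9 genes 8 fell by more than 1 log2 unit, with no share over all genes counted.

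Aurkb, a mitotic kinase, was higher in ENSW in BRAF organoids (1.98 ± 0.47, limma adjusted p = 0.0245) and in selected organoids (1.78 ± 0.47, 0.0235) than in EV organoids, the 1 cell cycle gene of 22 called higher in either; both comparisons share the EV arrays. The medians of the cell cycle list in these comparisons were -0.48 and -0.23. Of all genes 6.22% and 13.8% were called there in either direction. Aurkb is dim here: no EV array in base and no wild-type array had it well above background.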
